A study of Mus musculus with 3 samples.

Results

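The 9 genes described here encode 6 signal transducers and activators of transcription (Stat2, Stat3, Stat4, Stat5a, Stat5b and Stat6) and 3 feedback inhibitors (Socs1, Socs3 and Cish). They were taken as all 18 probe sets, of 45101 on an Affymetrix mouse array, that the platform annotation assigns to 1 of these gene symbols. They stand among 18194 genes named by a probe set of a single gene. RNA came from spleens of naive, healthy female C57bl/6 mice aged 6 to 8 weeks, with no treatment or engineered allele named in the labels. After bead depletion of T and B cells, plasmacytoid dendritic cells (pDC), CD8+ conventional dendritic cells (CD8+ cDC) and CD11b+ conventional dendritic cells (CD11b+ cDC) were sorted by flow cytometry, and RNA of 5 to 8 mice was pooled for each. With 1 array per cell type there is no replicate, so that neither the spread between animals nor that between arrays can be measured, no p-value is given, and the cell type cannot be told apart from its sort, amplification and hybridization.

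STAT proteins wait in the cytoplasm until a cytokine receptor and its Janus kinases (JAK) phosphorylate them, after which they pair, enter the nucleus and bind DNA. Socs1, Socs3 and Cish are themselves induced by STATs, and their proteins bind the receptors or the kinases through an SH2 domain and shut the signal off. In dendritic cell development, STAT3 acts downstream of Flt3 ligand, whereas STAT5, activated by GM-CSF, restrains pDC and favours conventional cells. STAT2 carries the type I interferon signal, STAT4 the IL-12 signal and STAT6 the IL-4 and IL-13 signals.

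Values are intensities as deposited, called signals here. A background level of 111.2 was set from probe sets of smell, pheromone and taste receptor genes. A gene was called different where 2 arrays differed at least 2-fold and the brighter lay above that level, and a signal under the level was raised to it, so that such a fold is a bound. Each gene is represented by its brightest probe set. On the array of its own cell type, each of the 13 measured pDC markers and each of the 10 measured CD8+ cDC markers had its highest signal. Of the 12 CD11b+ cDC markers 8 did so, the others being Cd4, Mgl2, Notch2 and Cd209a. The ratio of 3′ to 5′ control signals, a measure of RNA integrity and amplification, was 5.71 in pDC, 4.08 in CD8+ cDC and 2.91 in CD11b+ cDC for Actb. For Gapdh it was 16.2 in pDC, 17.6 in CD8+ cDC and 9.68 in CD11b+ cDC, so that CD11b+ cDC had the lowest ratio of both genes while the order of the other arrays differed. Hybridization spike-ins differed by -0.64 (mean log2) between pDC and CD8+ cDC, 0.36 between pDC and CD11b+ cDC, and 0.99 between CD8+ and CD11b+ cDC. Scaling the arrays on them moved the median difference of all genes to 0.65, -0.3 and -0.95 in the same order, against 0.0, 0.01 and 0.01 as deposited, so differences below are relative to the bulk of genes.

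Of the 9 genes, 8 gave a signal above background, and 3 of these 8 differed at least 2-fold between any of the arrays: Stat4, Socs3 and Stat2. Stat4 was brightest in CD11b+ cDC, Socs3 and Stat2 in pDC, and the last 2 were dimmest in CD8+ cDC. Stat3, Stat5a, Stat5b, Stat6 and Cish varied under 2-fold across the 3 cell types at their brightest probe set, and Socs1 was not above background on any array. For pDC against CD8+ cDC, 2 of 8 members (Stat2 and Socs3) were higher, beside 16.0% of all genes tested, and 0 were lower, beside 14.8%. For pDC against CD11b+ cDC, 1 member (Socs3) was higher, beside 15.0% of all genes, and 1 (Stat4) was lower, beside 14.3%. For CD8+ against CD11b+ cDC, 0 members were higher, beside 9.86% of all genes, and 2 (Stat4 and Socs3) were lower, beside 10.3%. In either direction, 30.8%, 29.3% and 20.1% of all genes were called in these 3 comparisons. With so few members these counts cannot be set apart from the shares over all genes. Median differences of the 8 members were 0.13, 0.08 and -0.52 (log2) in the same order of comparisons, and 0.75, -0.27 and -1.52 with spike-in scaling, which turned the sign of the second.

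**Figure D1:**
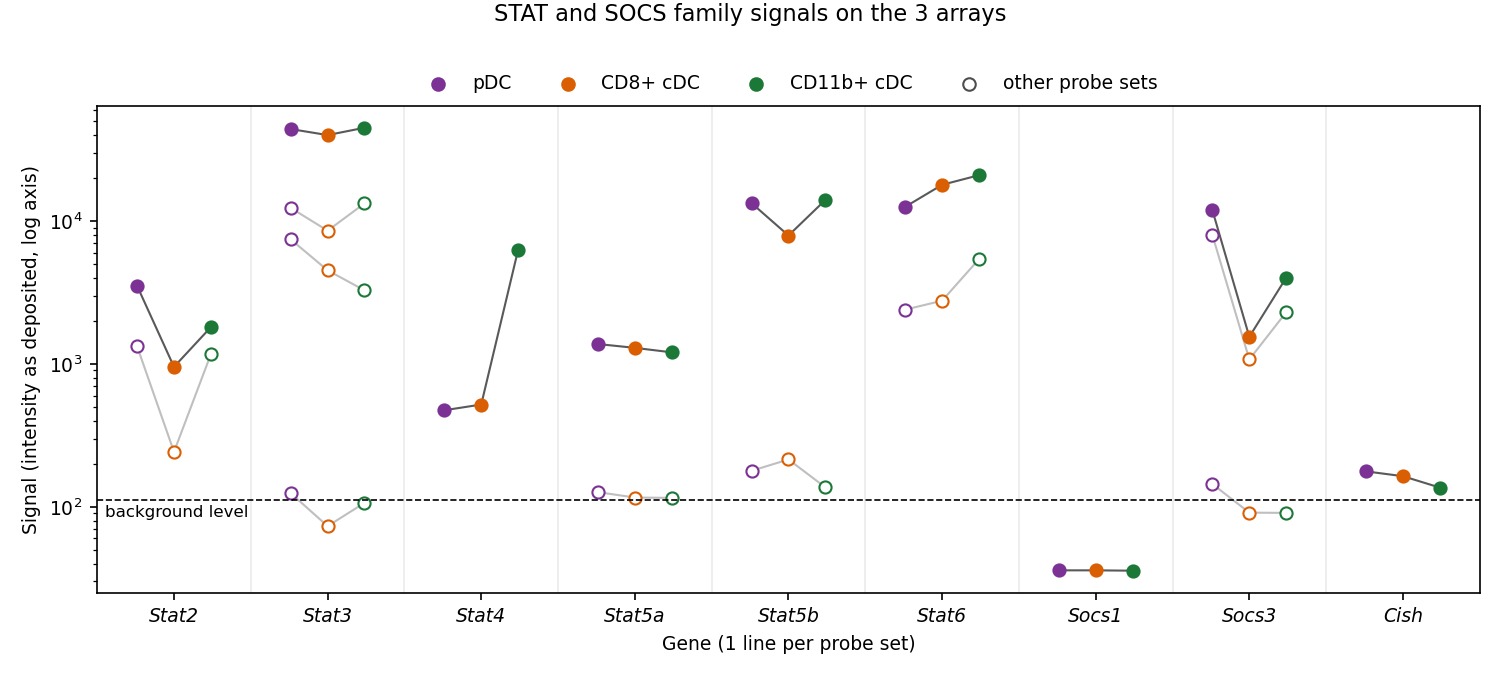
Signals of the 18 probe sets of the 9 genes on the 3 arrays, on a log axis. Each line is 1 probe set, with filled points for the brightest probe set of a gene, open points for its others and a dashed line at the background level of 111.2. Stat4 stands out in CD11b+ cDC at 6277, the filled points of Socs3 and Stat2 are lowest in CD8+ cDC, and Socs1 lies under the dashed line. The dimmest Socs3 probe set lies under that line in both cDC.

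Stat4, the transducer of IL-12 signals that is best known from T cells and natural killer (NK) cells, differed most. Its only probe set gave a signal of 474 in pDC, 520 in CD8+ cDC and 6277 in CD11b+ cDC. The pDC and CD8+ cDC arrays lay close together (log2 -0.13) and above background, while the CD11b+ cDC array stood alone. Stat4 was 13.2-fold lower in pDC than in CD11b+ cDC (log2 -3.73) and 12.1-fold lower in CD8+ cDC than in CD11b+ cDC (log2 -3.59). A difference at least that large was found at 5.3% of genes in the first comparison and at 2.66% in the second. In a bulk sample, fewer cells that hold a transcript and less of it per cell cannot be told apart.

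Because T and NK cells use Stat4, their markers were read on the same arrays. Of 14 T cell markers, 4 were above background in pDC, 3 in CD8+ cDC and 3 in CD11b+ cDC, and 10 lay at or below it on all arrays, including Cd3d, Cd3e and Cd3g, the chains of the T cell receptor complex. Their summed signals were 6412 in pDC, 18813 in CD8+ cDC and 17592 in CD11b+ cDC, most of it from Icos in both cDC and from Cd28 in pDC. Cd5 did move with Stat4, at 344 in pDC, 432 in CD8+ cDC and 2832 in CD11b+ cDC. Of 13 NK cell markers, 4 were above background in pDC, 5 in CD8+ cDC and 7 in CD11b+ cDC, with summed signals of 564551 in pDC, 124361 in CD8+ cDC and 358439 in CD11b+ cDC, nearly all from Tyrobp and Klrd1. The defining NK genes Ncr1, encoding NKp46, Prf1, encoding perforin, and Eomes lay below background on all 3 arrays, as did Gzmb, Nkg7 and Il2rb. Gzma, encoding granzyme A, moved with Stat4, at 338 in pDC, 336 in CD8+ cDC and 695 in CD11b+ cDC, 2.06-fold lower in pDC and 2.07-fold lower in CD8+ cDC than in CD11b+ cDC. Klre1 (118) and S1pr5 (126) were above background in CD11b+ cDC alone. Klrk1 did not move with Stat4 and was highest in CD8+ cDC, at 126 in pDC, 793 in CD8+ cDC and 307 in CD11b+ cDC. Markers of monocytes and macrophages, many of which cDC also express, were above background at 12 of 12 on each array, and their summed signals were 63069 in pDC, 133077 in CD8+ cDC and 335180 in CD11b+ cDC. Neutrophil markers were above background at 8 of 10 in pDC, 7 in CD8+ cDC and 8 in CD11b+ cDC, and summed to 3168 in pDC, 1870 in CD8+ cDC and 17896 in CD11b+ cDC. The part of T, NK and these myeloid cells in the Stat4 signal was not tested.

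The receptor of IL-12, the cytokine upstream of STAT4, has 2 chains, both dim on all 3 arrays. Il12rb1 gave 339 in pDC, 56.6 in CD8+ cDC and 75.3 in CD11b+ cDC, at least 3.05-fold higher in pDC than in either cDC. Il12rb2, the chain that recruits STAT4, gave 67.9 in pDC, 86.1 in CD8+ cDC and 251 in CD11b+ cDC, and was at least 2.26-fold lower in pDC and in CD8+ cDC than in CD11b+ cDC. With the background set at the 99th percentile (411.7), neither chain was above it on any array and 0 of these differences were called. Of 6 known STAT4 targets, Ifng, Il18r1 and Il18rap were not above background on any array, and Furin, a proprotein convertase gene, differed at most 1.22-fold. The remaining 2 encode transcription factors and were brightest in CD11b+ cDC. Tbx21, encoding T-bet, gave 71.4 in pDC, 285 in CD8+ cDC and 13146 in CD11b+ cDC, so that it was at least 118-fold lower in pDC and 46.1-fold lower in CD8+ cDC than in CD11b+ cDC. Hlx gave 260 in pDC, 1024 in CD8+ cDC and 6358 in CD11b+ cDC, 24.4-fold and 6.21-fold lower in pDC and in CD8+ cDC than in CD11b+ cDC. The median over the 3 measured targets was -1.36 for pDC minus CD8+ cDC, with 0 higher and 2 lower (1 lower with spike-in scaling). It was -4.61 for pDC minus CD11b+ cDC and -2.63 for CD8+ minus CD11b+ cDC, each with 0 higher and 2 lower. Of all genes, 14.8%, 14.3% and 10.3% were lower in the same order of comparisons, and the counts of 3 targets were not tested against these shares.

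**Figure D2:**
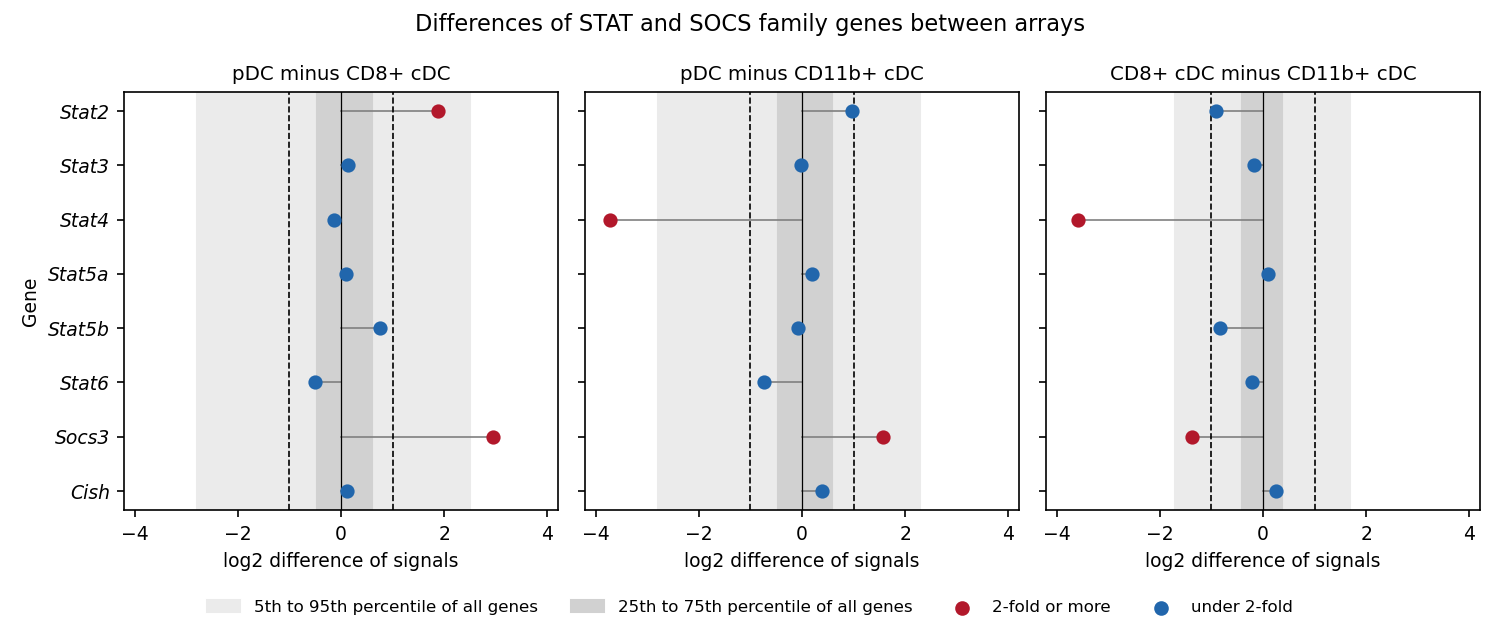
Differences of the 8 measured genes in log2 signal for the 3 comparisons, with dashed lines at 2-fold and grey bands for the middle of all genes tested. Stat4 falls left of the light band in both comparisons with CD11b+ cDC (-3.73 and -3.59), Socs3 lies right of it for pDC minus CD8+ cDC (2.94), and Stat3, Stat5a and Cish stay close to 0.

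Socs3, the inhibitor induced by STAT3 that blocks signals through the gp130 receptor chain, had the next largest range. Its brightest probe set gave 11870 in pDC, 1548 in CD8+ cDC and 4011 in CD11b+ cDC, and a second gave 7958 in pDC, 1075 in CD8+ cDC and 2300 in CD11b+ cDC. Both place pDC highest and CD8+ cDC lowest with at least 2-fold between any 2 arrays. By the brightest, Socs3 was 7.67-fold higher in pDC than in CD8+ cDC (log2 2.94, matched or exceeded by 8.58% of genes) and 2.96-fold higher in pDC than in CD11b+ cDC (log2 1.57). It was 2.59-fold lower in CD8+ cDC than in CD11b+ cDC (log2 -1.37). Both of these probe sets are of the type marked _x_at, whose probes may also bind transcripts of other genes. The third, of the gene-specific type, gave only 144 in pDC and lay below background in CD8+ cDC (91.0) and CD11b+ cDC (90.6), so that pDC exceeded both by at least 1.30-fold. The direction toward pDC is shared by all 3, but the size rests on the pair of _x_at probe sets.

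Stat2, the STAT that joins IRF9 in the interferon-activated complex ISGF3, was also highest in pDC. Its brighter probe set gave 3513 in pDC, 954 in CD8+ cDC and 1809 in CD11b+ cDC, and the other gave 1325 in pDC, 242 in CD8+ cDC and 1167 in CD11b+ cDC. Both place CD8+ cDC lowest, but they differ over pDC and CD11b+ cDC, which lay 1.94-fold apart by the first and 1.14-fold by the second. Stat2 was 3.68-fold higher in pDC than in CD8+ cDC (log2 1.88), or 5.47-fold by the second probe set. CD8+ and CD11b+ cDC lay 1.90-fold apart, just short of the rule, while the second probe set was 4.82-fold lower in CD8+ cDC. Plasma cell markers were above background at 5 of 6 in pDC, 3 in CD8+ cDC and 4 in CD11b+ cDC, and summed to 180047 in pDC, 49369 in CD8+ cDC and 57523 in CD11b+ cDC. Most of each sum came from Xbp1 (120877 in pDC). The next largest in pDC was Mzb1 (47739), which is also on the list of pDC markers. By its brightest probe set, Sdc1 was above background in pDC alone (3355), at least 30.2-fold higher than in either cDC. Jchain (7870 in pDC and 14060 in CD11b+ cDC) and Prdm1 (152 and 413) were instead highest in CD11b+ cDC, and Tnfrsf17 was not above background on any array. B cell markers were above background at 6 of 12 in pDC, 6 in CD8+ cDC and 7 in CD11b+ cDC, with Cd79a, Pax5, Fcer2a, Ebf1 and Vpreb3 below it on all arrays, and summed to 237831 in pDC, 85384 in CD8+ cDC and 237287 in CD11b+ cDC. Of these, Cd79b, a chain of the B cell receptor, gave 10103 in pDC, 381 in CD8+ cDC and 4026 in CD11b+ cDC, in the order of Stat2 and Socs3, and was 26.5-fold higher in pDC than in CD8+ cDC. Ighm, the immunoglobulin mu heavy chain, had the same order by its brightest probe set, at 171513 in pDC, 50809 in CD8+ cDC and 142572 in CD11b+ cDC. Another bright probe set shared that order. Dimmer ones did not, such as one at 2483 in pDC, 374 in CD8+ cDC and 4310 in CD11b+ cDC. Other orders were found for Ms4a1, highest in CD8+ cDC (19147), and Cd22, highest in CD11b+ cDC (78540). Fcrla was highest in pDC (54639) but lowest in CD11b+ cDC (118), with 13003 in CD8+ cDC. The part of B and plasma cells in the Stat2 and Socs3 signals was not tested.

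The upstream sequences of Stat2 and Socs3 are shown because these 2 genes shared the order pDC, CD11b+ cDC, CD8+ cDC at their brightest probe sets. They are the 250 bases before the annotated start of transcription in RefSeq, build GRCm38.p6, at chr10:128270248-128270497 on the + strand for Stat2 and chr11:117969367-117969616 on the - strand for Socs3. Capitals mark matches to 3 patterns, each searched on both strands. The STAT palindrome, bound by most STAT dimers, is TTC and GAA with any 3 bases between them. The STAT6 palindrome, a wider spacing that STAT6 prefers, has 4 bases between them. The core of the interferon-stimulated response element (ISRE) is GAAA, any 2 bases and GAAA, and reads TTTC, 2 bases and TTTC on the other strand.
Stat2: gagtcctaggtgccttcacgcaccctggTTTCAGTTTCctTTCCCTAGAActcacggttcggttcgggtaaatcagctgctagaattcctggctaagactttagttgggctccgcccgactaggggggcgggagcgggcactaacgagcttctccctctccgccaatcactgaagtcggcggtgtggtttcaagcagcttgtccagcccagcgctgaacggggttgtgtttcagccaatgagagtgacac
Socs3: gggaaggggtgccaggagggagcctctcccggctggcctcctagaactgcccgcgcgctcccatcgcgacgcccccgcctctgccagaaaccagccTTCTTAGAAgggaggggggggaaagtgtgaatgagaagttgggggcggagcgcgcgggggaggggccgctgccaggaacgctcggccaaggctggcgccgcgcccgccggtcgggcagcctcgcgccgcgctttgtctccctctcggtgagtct
The Stat2 stretch held the ISRE core on the minus strand, from base -222 to -213 relative to the start, and the STAT6 palindrome from -210 to -201, with no overlap. The Socs3 stretch held the STAT palindrome from -154 to -146. In windows of 300 bases, which add 50 bases after the start, the STAT palindrome was present in 8.3% of all 32851 windows, the STAT6 palindrome in 6.95% and the ISRE core in 3.44%. The 2 genes thus share no pattern among these letters, and a match describes the sequence only.

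All 9 genes matched a RefSeq window, 12 in all because Stat4, Stat5a and Stat5b each have 2 starts. The STAT palindrome was in 2 of the 12, those of Socs3 and Cish, the STAT6 palindrome in 1 and the ISRE core in 3. Over all windows the shares were 8.3%, 6.95% and 3.44% in the same order. With so few windows these counts cannot be set apart from those shares. The matches outside the stretches above are shown with up to 30 bases, since they lie in the other feedback inhibitors and at the second start of Stat4, at chr1:52008133-52008162 (+) for Stat4, chr16:10785597-10785626 (-) for Socs1 and chr9:107296654-107296683 (+) for Cish. Capitals again mark the matches.
Stat4: aatgtcttcaGAAAGTGAAAtttagaacgg
Socs1: cttgccgGAAAGAGAAACCGAAAgcggggg
Cish: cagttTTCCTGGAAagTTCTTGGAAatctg
In Socs1 2 copies of the ISRE core overlap (bases -83 to -74 and -77 to -68), and in Cish 2 copies of the STAT palindrome lie side by side from base 1 to 9 and 12 to 20 after the start.

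Cish, which binds receptors at the docking site of STAT5 and is among the genes most directly induced by it, was near background throughout. It gave 177 in pDC, 164 in CD8+ cDC and 136 in CD11b+ cDC, at most 1.30-fold apart. Socs1, the inhibitor of JAK kinases that limits interferon signalling, gave 35.9 in pDC, 35.9 in CD8+ cDC and 35.7 in CD11b+ cDC, below the background level on all 3, so that its expression was not detectable by its only probe set. Of the 3 feedback inhibitors, Socs3 alone had a signal over 177 on any array, and only by its _x_at probe sets. Its gene-specific probe set reached 144 in pDC and lay below background in both cDC.

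Stat5a and Stat5b encode closely similar proteins and lie next to each other, with Stat3 adjacent to Stat5a, in the gene order of GRCm38.p6. Stat5a gave 1378 in pDC, 1296 in CD8+ cDC and 1205 in CD11b+ cDC, at most 1.14-fold apart, and its other probe set lay just above background on each array (127 in pDC, 116 in CD8+ cDC and 115 in CD11b+ cDC). Stat5b gave 13334 in pDC, 7921 in CD8+ cDC and 14042 in CD11b+ cDC, with CD8+ cDC 1.68-fold under pDC and 1.77-fold under CD11b+ cDC. Its other probe set, at 179 in pDC, 214 in CD8+ cDC and 137 in CD11b+ cDC, put CD8+ cDC highest instead, so that the probe sets disagree on the order of the cell types. Neither gene passed the 2-fold rule. Probes of such close copies may share transcripts, so a split of signal between them is uncertain.

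Stat3 has 4 probe sets. The brightest gave 44037 in pDC, 39975 in CD8+ cDC and 44988 in CD11b+ cDC, at most 1.13-fold apart. The next gave 12355 in pDC, 8561 in CD8+ cDC and 13287 in CD11b+ cDC, and the one after it 7438 in pDC, 4519 in CD8+ cDC and 3273 in CD11b+ cDC, 2.27-fold higher in pDC than in CD11b+ cDC. The last was above background only in pDC (124). Stat3 transcript as seen by the brightest probe set was thus nearly level across the 3 cell types, with 1 of the dimmer probe sets at odds with it for pDC against CD11b+ cDC.

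Stat6 was lowest in pDC by both of its probe sets. The brighter gave 12579 in pDC, 17935 in CD8+ cDC and 20933 in CD11b+ cDC, so that pDC lay 1.43-fold under CD8+ cDC and 1.66-fold under CD11b+ cDC. The other gave 2398 in pDC, 2769 in CD8+ cDC and 5409 in CD11b+ cDC, 2.26-fold lower in pDC than in CD11b+ cDC. The order pDC, CD8+ cDC, CD11b+ cDC was common to both, while only the second reached 2-fold.

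Across all genes with 2 probe sets above background on both arrays, the spread between the log2 differences of the brightest 2 had an SD of 0.72 in pDC against CD8+ cDC (4361 genes). The SD was 0.70 in pDC against CD11b+ cDC (4363 genes) and 0.63 in CD8+ against CD11b+ cDC (4432 genes). The differences of Stat3, Stat5a, Stat6 and Cish at their brightest probe sets were within or close to that spread, the widest being -0.73 for Stat6 in pDC minus CD11b+ cDC. Those of Stat5b reached 0.75 and -0.83. The differences called for Stat2, Stat4 and Socs3 were from 1.37 to 3.73 in size. A call needs a log2 difference of at least 1, so that any called difference exceeds these SDs by rule. The Stat2 differences short of a call, 0.96 for pDC minus CD11b+ cDC and -0.92 for CD8+ minus CD11b+ cDC, exceeded them too. The gene-specific Socs3 probe set does not enter the spread. This spread covers probe sets within an array and not animals.

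The genes whose levels over the 3 arrays ran most like the 3 called members were sought by the largest gap between centred log2 signals. Nearest to Stat4 were Bbs9, with a gap of 0.087, Klrb1f (0.165) and Oas1c (0.202), and 6 of 8801 genes came within 0.25. Nearest to Socs3 were Slc36a4 (0.069), 5430427O19Rik (0.104) and Rbbp9 (0.114), with 20 genes within 0.25. Nearest to Stat2 were Slc16a10 (0.024), Trim56 (0.029) and Ptpn1 (0.056), with 98 genes within 0.25. With 3 arrays, such likeness describes the order and spacing of 3 values only.

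Receptors that feed these STATs were read on the same arrays. Their counts, and those of the lists after them, stand beside the shares of all genes called as deposited. These were 16.0% higher and 14.8% lower for pDC against CD8+ cDC, and 15.0% and 14.3% for pDC against CD11b+ cDC. For CD8+ against CD11b+ cDC they were 9.86% and 10.3%. Other counts over all genes apply to spike-in scaling. It called 3389 genes higher and 979 lower for pDC against CD8+ cDC, where 1730 and 1604 were called as deposited. For pDC against CD11b+ cDC it called 1139 and 2130, where 1620 and 1542 were called as deposited. For CD8+ against CD11b+ cDC it called 408 and 4775, where 1056 and 1101 were called as deposited. No list was tested against these shares or counts. The type I interferon receptor chains Ifnar1 and Ifnar2, upstream of STAT2, were highest in pDC. Ifnar1 gave 16411 in pDC, 7214 in CD8+ cDC and 3654 in CD11b+ cDC, 2.28-fold and 4.49-fold higher in pDC than in CD8+ cDC and CD11b+ cDC. Its other probe set gave 5338 in pDC, 1288 in CD8+ cDC and 1940 in CD11b+ cDC. Both put pDC highest but differ over the order of the cDC. Ifnar2 gave 69844 in pDC, 11533 in CD8+ cDC and 21935 in CD11b+ cDC, 6.06-fold and 3.18-fold higher in pDC. Ifngr1, the ligand-binding chain of the interferon-gamma receptor, went the other way, with 5809 in pDC, 119595 in CD8+ cDC and 57693 in CD11b+ cDC, 20.6-fold lower in pDC than in CD8+ cDC and 9.93-fold lower in pDC than in CD11b+ cDC. Of 5 measured interferon and IL-10 receptor chains, 2 were higher and 1 lower in pDC against either cDC, with medians of 0.92 and 0.51. With spike-in scaling the calls were 2 higher and 2 lower in pDC against CD11b+ cDC. For CD8+ against CD11b+ cDC 1 was higher (Ifngr1) and 0 lower (median 0.16), which turned to 0 higher and 2 lower (median -0.84) with spike-in scaling.

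Of 8 measured receptor chains that signal mainly through STAT3, 3 were higher and 2 lower in pDC against CD8+ cDC (median -0.42, or 0.22 with spike-in scaling). Against CD11b+ cDC, 2 were higher and 2 lower in pDC (median -0.56), or 2 and 4 with spike-in scaling. Of all genes, 16.0% were higher and 14.8% lower in the first comparison, and 15.0% and 14.3% in the second. Il6st, encoding gp130, the shared signalling chain of the IL-6 family and the docking site of SOCS3, gave 7632 in pDC, 26022 in CD8+ cDC and 38798 in CD11b+ cDC, 3.41-fold and 5.08-fold lower in pDC than in CD8+ cDC and CD11b+ cDC. Il6ra, its IL-6 binding partner, was 3.23-fold and 6.01-fold lower in pDC. Lifr, the leukemia inhibitory factor receptor that also pairs with gp130, gave 78962 in pDC, 327 in CD8+ cDC and 1993 in CD11b+ cDC, 241-fold and 39.6-fold higher in pDC. Il27ra was 3.72-fold and 3.21-fold higher in pDC, and Il21r was 3.22-fold higher in pDC than in CD8+ cDC. Between CD8+ and CD11b+ cDC, 0 were higher and 2 lower in CD8+ cDC, Lifr by 6.09-fold and Il21r by 3.86-fold (median -0.67, with 6 lower after spike-in scaling). The shares over all genes there were 9.86% and 10.3%. Flt3, the receptor of the main dendritic cell growth factor, gave 42851 in pDC, 78033 in CD8+ cDC and 56499 in CD11b+ cDC, under 2-fold apart.

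Of 7 measured STAT5 receptor chains, Il7r and Csf2rb2 were higher and Csf2ra was lower in pDC against each cDC, with medians of 0.13 and 0.01 (1.04 and -0.03 with spike-in scaling). Of all genes, 16.0% were higher and 14.8% lower in pDC against CD8+ cDC, and 15.0% and 14.3% against CD11b+ cDC. Il7r, the IL-7 receptor of lymphoid progenitors, gave 152617 in pDC, 2739 in CD8+ cDC and 5422 in CD11b+ cDC, 55.7-fold and 28.1-fold higher in pDC than in CD8+ cDC and CD11b+ cDC. Csf2ra, the GM-CSF binding chain, gave 3398 in pDC, 22200 in CD8+ cDC and 16808 in CD11b+ cDC, 6.53-fold and 4.95-fold lower in pDC. Csf2rb2, the mouse beta chain dedicated to IL-3, was 7.05-fold and 14.5-fold higher in pDC, and it resembles Csf2rb closely enough that probes may be shared. For Csf2rb, the common beta chain, pDC lay 1.75-fold and 1.73-fold above the same cDC, short of the rule. In CD8+ against CD11b+ cDC, Csf2rb2 was 2.06-fold higher and 0 were lower (median 0.0), or 0 higher and 2 lower with spike-in scaling. The shares over all genes there were 9.86% and 10.3%. Of the 2 STAT6 receptor chains, Il4ra gave 7818 in pDC, 10151 in CD8+ cDC and 8396 in CD11b+ cDC, at most 1.30-fold apart, while Il13ra1 gave 1064 in pDC, 3969 in CD8+ cDC and 4901 in CD11b+ cDC, 3.73-fold and 4.60-fold lower in pDC than in CD8+ cDC and CD11b+ cDC. Medians of these 2 chains were -1.14 for pDC minus CD8+ cDC, -1.15 for pDC minus CD11b+ cDC and -0.02 for CD8+ minus CD11b+ cDC, where 0 were called (1 lower with spike-in scaling).

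**Figure D3:**
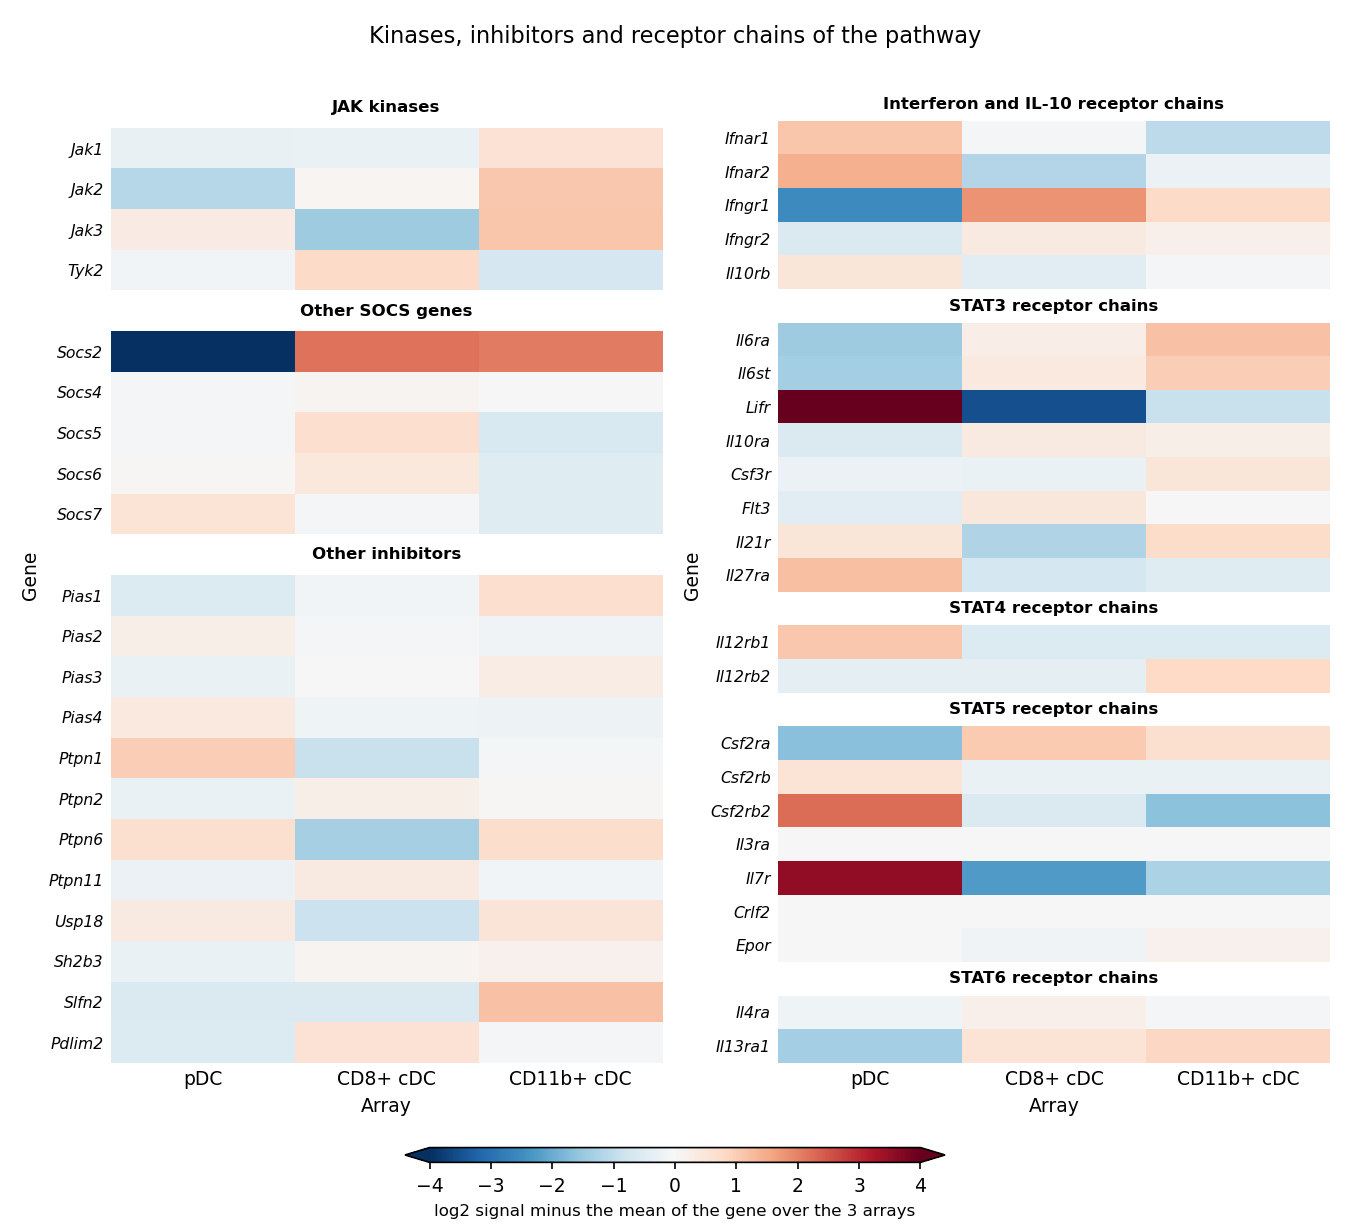
Kinases, inhibitors and receptor chains of the pathway on the 3 arrays, as log2 signal minus the mean of the gene over the arrays, red for above and blue for below. Socs2 is dark blue in pDC alone (86.1-fold and 80.5-fold lower than in CD8+ cDC and CD11b+ cDC), and Lifr and Il7r are dark red in pDC.

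Among the JAK kinases, Jak2, used by the receptors of GM-CSF, interferon-gamma and IL-12, gave 25954 in pDC, 60380 in CD8+ cDC and 120016 in CD11b+ cDC, 2.33-fold and 4.62-fold lower in pDC than in CD8+ cDC and CD11b+ cDC. Its other probe set gave 2.86-fold and 4.76-fold. Jak3, the kinase of the common gamma chain, gave 1161 in pDC, 345 in CD8+ cDC and 2019 in CD11b+ cDC, 3.37-fold higher in pDC than in CD8+ cDC and 5.86-fold lower in CD8+ cDC than in CD11b+ cDC. Tyk2, used by the IL-12 and type I interferon receptors, gave 21135 in pDC, 38166 in CD8+ cDC and 14274 in CD11b+ cDC, 2.67-fold higher in CD8+ cDC than in CD11b+ cDC. Jak1 gave 10970 in pDC, 11275 in CD8+ cDC and 20101 in CD11b+ cDC and stayed under 2-fold. Of these 4 genes, 1 was higher and 1 lower for pDC against CD8+ cDC (median -0.45), 0 and 1 for pDC against CD11b+ cDC (median -0.84), and 1 and 1 for CD8+ against CD11b+ cDC (median -0.91). The shares over all genes were 16.0% and 14.8%, 15.0% and 14.3%, and 9.86% and 10.3%. With spike-in scaling the calls among the 4 kinases were 1 and 0 (median 0.19), 0 and 3, and 0 and 3.

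Of 5 other SOCS genes, Socs2, which acts on growth hormone and other STAT5 signals, differed most. It gave 123 in pDC, 10594 in CD8+ cDC and 9910 in CD11b+ cDC, 86.1-fold lower in pDC than in CD8+ cDC and 80.5-fold lower in pDC than in CD11b+ cDC, and a second probe set gave 25.2-fold and 19.8-fold. Of its 2 dimmer probe sets, both below background in pDC, 1 gave 92.3 in pDC, 696 in CD8+ cDC and 165 in CD11b+ cDC, at least 6.26-fold and 1.48-fold under CD8+ cDC and CD11b+ cDC. The other was above background in CD11b+ cDC alone (185). Socs5 was 2.46-fold higher in CD8+ cDC than in CD11b+ cDC, against 1.30-fold by its dimmer probe set. Socs7 was 2.04-fold higher in pDC than in CD11b+ cDC, or 2.26-fold by its other probe set, and Socs4 and Socs6 stayed under 2-fold. Calls were 0 higher and 1 lower for pDC against CD8+ cDC (median -0.38), 1 and 1 for pDC against CD11b+ cDC (median 0.52), and 1 and 0 for CD8+ against CD11b+ cDC (median 0.45). Of all genes, 16.0% and 14.8%, 15.0% and 14.3%, and 9.86% and 10.3% were so called as deposited. With spike-in scaling the calls among the 5 SOCS genes were 1 and 1 (median 0.26), 0 and 1, and 0 and 0 (median -0.55). Socs2 and Socs3 thus lay on opposite sides, the first near background in pDC and the second highest in pDC. The Socs3 level rests on its _x_at probe sets, since its gene-specific probe set was itself near background in pDC (144).

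Of 12 other inhibitors of STAT signalling, 3 were higher and 1 lower in pDC against CD8+ cDC (median -0.14, or 0.5 with spike-in scaling, when 4 were higher and 0 lower). Shares over all genes as deposited were 16.0% higher and 14.8% lower there. They were 15.0% and 14.3% for pDC against CD11b+ cDC, and 9.86% and 10.3% for CD8+ against CD11b+ cDC. Ptpn6, encoding the phosphatase SHP-1, gave 238736 in pDC, 61224 in CD8+ cDC and 249710 in CD11b+ cDC, 3.90-fold higher in pDC than in CD8+ cDC and 4.08-fold lower in CD8+ cDC than in CD11b+ cDC. Ptpn1, the phosphatase that acts on JAK2 and TYK2, was higher in pDC, 3.67-fold over CD8+ cDC and 2.06-fold over CD11b+ cDC. Its other probe set gave 3.72-fold and 1.81-fold, the second short of the rule. Usp18, which blocks the type I interferon receptor, was 2.36-fold higher in pDC than in CD8+ cDC and 2.60-fold lower in CD8+ cDC than in CD11b+ cDC. Pdlim2, a ubiquitin ligase for STAT4, was 2.16-fold lower in pDC than in CD8+ cDC. Against CD11b+ cDC, 1 was higher and 2 lower in pDC (Slfn2 by 3.39-fold and Pias1 by 2.34-fold, median -0.23), or 0 and 2 with spike-in scaling. The other Pias1 probe sets above background put pDC only 1.40-fold, 1.41-fold and 1.24-fold lower, so the Pias1 call rests on its brightest probe set. In CD8+ cDC set against CD11b+ cDC, 0 were higher and 3 lower, Ptpn6, Slfn2 and Usp18 (median -0.19, with 7 lower after spike-in scaling).

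Known targets of the STATs were read in the same way. Beside their counts stand the shares over all genes, 16.0% higher and 14.8% lower for pDC against CD8+ cDC. For pDC against CD11b+ cDC the shares were 15.0% and 14.3%, and for CD8+ against CD11b+ cDC 9.86% and 10.3%. Irf9, the DNA-binding partner of STAT2, was level at 23385 in pDC, 23682 in CD8+ cDC and 24736 in CD11b+ cDC. Of 13 genes in the list of IRF9 and interferon-stimulated targets, 5 were higher and 2 lower in pDC against CD8+ cDC (median 0.62), or 7 and 1 with spike-in scaling. Against CD11b+ cDC, where Stat2 itself lay 1.94-fold apart, 2 were higher (Irf7 and Mx2) and 7 lower (median -1.42). For CD8+ against CD11b+ cDC 1 was higher (Mx1, 3.81-fold) and 8 lower (median -1.6). With spike-in scaling 0 were higher and 10 lower, when 408 of all genes were higher and 4775 lower. Rtp4, an interferon-induced chaperone, gave 545 in pDC, 365 in CD8+ cDC and 35399 in CD11b+ cDC, and the antiviral gene Ifit3 gave 1716 in pDC, 884 in CD8+ cDC and 21171 in CD11b+ cDC. The antiviral RNA-sensing gene Oas1a gave 5031 in pDC, 1372 in CD8+ cDC and 42542 in CD11b+ cDC. These genes were brightest on the CD11b+ cDC array, whereas Irf7 was 4.78-fold and 3.69-fold higher in pDC than in CD8+ cDC and CD11b+ cDC.

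Of 9 measured STAT3 targets other than Socs3, 1 was higher (Cebpb, 2.83-fold) and 4 lower in pDC against CD8+ cDC (median -0.75), or 2 and 2 with spike-in scaling. Against CD11b+ cDC, 0 were higher and 6 lower in pDC (median -1.2). Of all genes, 16.0% were higher and 14.8% lower in the first comparison, and 15.0% and 14.3% in the second. Bcl6, a repressor that supports conventional dendritic cells, gave 7114 in pDC, 60722 in CD8+ cDC and 44304 in CD11b+ cDC, 8.54-fold and 6.23-fold lower in pDC than in CD8+ cDC and CD11b+ cDC. Junb, an immediate early gene, was 6.27-fold and 9.30-fold lower in pDC. Bcl6 and Junb were thus lower in pDC, where Socs3 was higher, by at least 2-fold only at its _x_at probe sets. For CD8+ against CD11b+ cDC, 0 were higher and 2 lower, Bcl3 and Zfp36 (median -0.04, with 5 lower after spike-in scaling). The shares over all genes there were 9.86% and 10.3%.

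Of 8 measured STAT5 targets other than Cish, 1 was higher and 2 lower in pDC against CD8+ cDC (median -0.3, or 0.03 with spike-in scaling, when 2 were higher and 2 lower). Pim2, a survival kinase gene, gave 8511 in pDC, 485 in CD8+ cDC and 290 in CD11b+ cDC, 17.6-fold and 29.4-fold higher in pDC than in CD8+ cDC and CD11b+ cDC. Id2, the inhibitor of E proteins that favours conventional dendritic cells, was 71.8-fold and 43.9-fold lower in pDC. Against CD11b+ cDC, 1 was higher and 4 lower in pDC (median -0.75). Of all genes, 16.0% were higher and 14.8% lower in pDC against CD8+ cDC, and 15.0% and 14.3% against CD11b+ cDC. Ccnd2, encoding cyclin D2, gave 2241 in pDC, 1707 in CD8+ cDC and 17252 in CD11b+ cDC, 10.1-fold lower in CD8+ cDC than in CD11b+ cDC. For CD8+ against CD11b+ cDC 1 was higher (Tnfrsf4, 3.26-fold) and 2 lower (median 0.29), or 0 and 2 with spike-in scaling (median -0.55). The shares over all genes there were 9.86% and 10.3%.

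Of 13 STAT6 targets, 7 were measured. For pDC against CD8+ cDC, 3 were higher and 3 lower (median -0.86), or 3 and 1 with spike-in scaling. Against CD11b+ cDC, 2 were higher and 5 lower in pDC (median -2.96), and for CD8+ against CD11b+ cDC 1 of 6 was higher and 4 were lower (median -2.11). The shares over all genes were 16.0% and 14.8%, 15.0% and 14.3%, and 9.86% and 10.3% in the same order. The chemokine gene Ccl22 gave 98.6 in pDC, 15754 in CD8+ cDC and 868 in CD11b+ cDC, at least 142-fold lower in pDC than in CD8+ cDC, which in turn exceeded CD11b+ cDC 18.2-fold. The checkpoint ligand genes Pdcd1lg2 and Cd274 were brightest in CD11b+ cDC, at least 28.1-fold and 15.3-fold lower in pDC than there. Toward pDC, the largest difference was that of the galactose-type lectin gene Clec10a, which gave 186442 in pDC, 270 in CD8+ cDC and 957 in CD11b+ cDC, 691-fold and 195-fold higher in pDC than in CD8+ cDC and CD11b+ cDC. Its relative Mgl2 was above background only in pDC (778). Chil3, a chitinase-like gene, gave 481 in pDC, 194 in CD8+ cDC and 4490 in CD11b+ cDC, 2.48-fold higher in pDC than in CD8+ cDC and 9.33-fold lower in pDC than in CD11b+ cDC. The alternative activation markers Arg1 and Retnla, and the chemokine gene Ccl17, were not above background on any array.

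**Figure D4:**
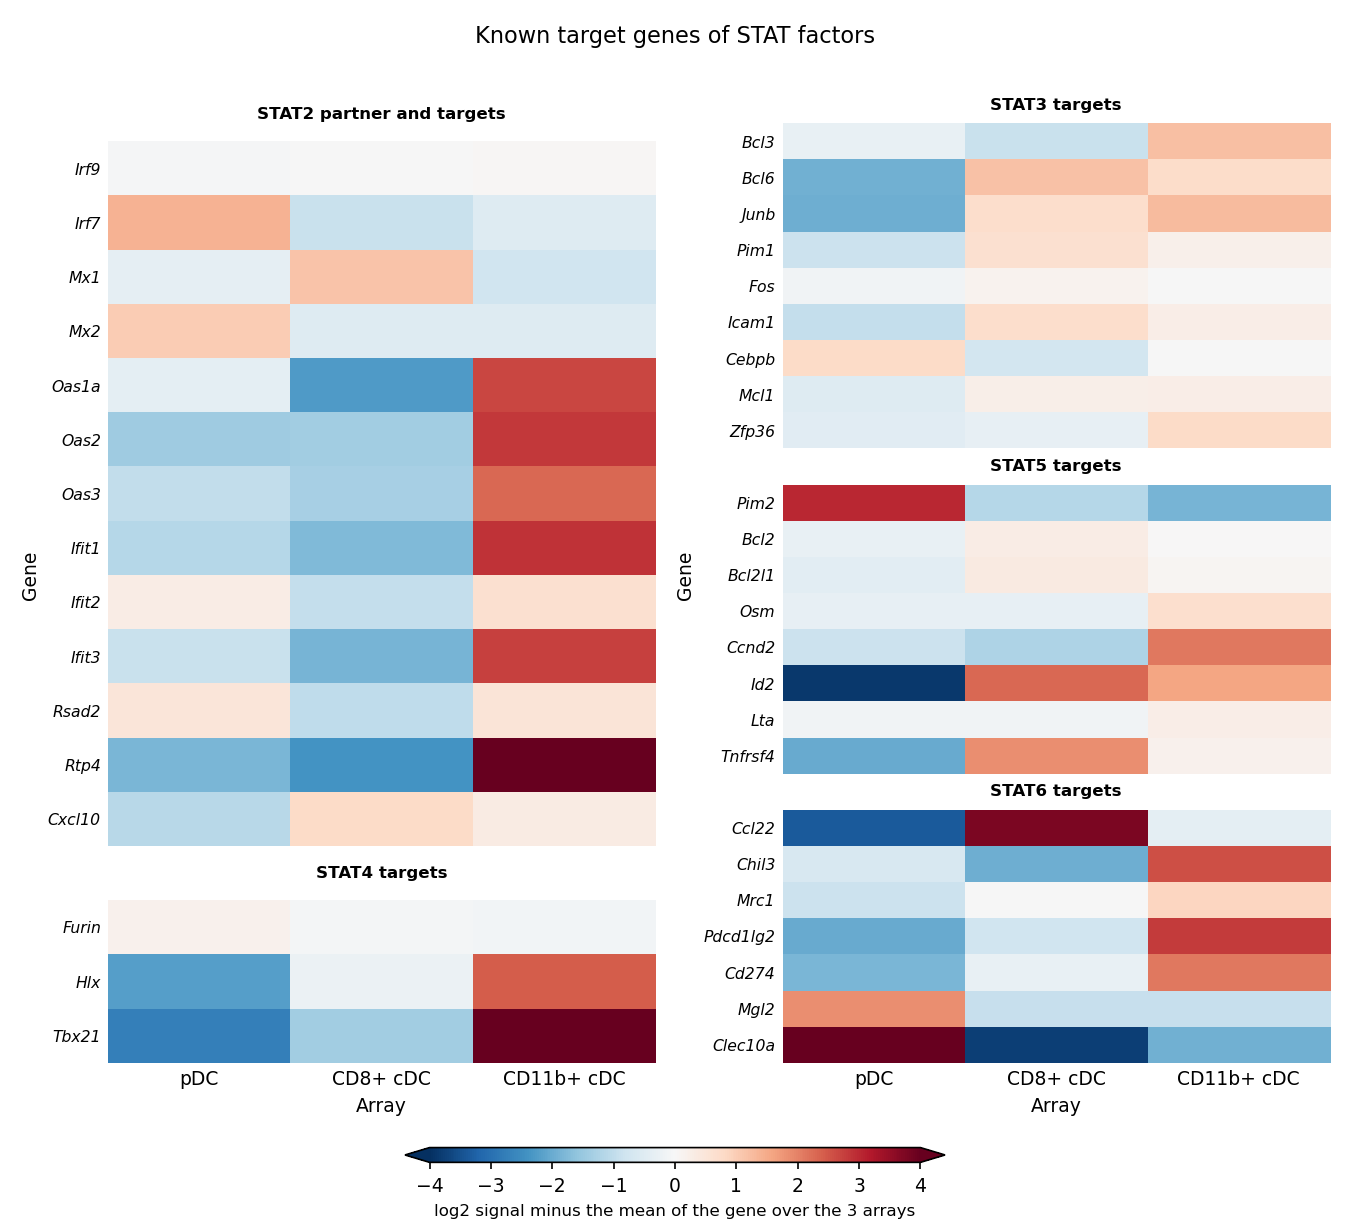
Known target genes of STAT factors on the 3 arrays, as log2 signal minus the mean of the gene over the arrays. Tbx21 and Rtp4 are dark red in CD11b+ cDC (13146 and 35399 in signal), Pim2 is red in pDC and Id2 dark blue there, and Irf9 is near white on all 3 arrays.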

How the data were processed

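Total RNA (20 ng) was amplified and labelled with biotin, per the labels' protocols. The authors deposited linear intensity values, 1 for each probe set, made with MAS5 per the submitters' processing notes. The sources used here name no further scaling.

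The background level was the 95th percentile of 87 sensory receptor probe sets on the array where it was highest. Lower values were raised to it before log2. Above it lay 10336 genes in pDC, 10390 in CD8+ cDC and 10403 in CD11b+ cDC. A gene was represented by the probe set whose mean log2 signal was highest. Genes were named by the platform annotation (34958 probe sets with 1 gene), and list entries without such a probe set were not analysed here. No test was possible with 1 array per cell type. The call rule was tried on simulated arrays with little noise and known folds put into bright genes. That checks its arithmetic and does not measure its error rate in these data. The members and lists were chosen with earlier results of these data known. All 9 members are named. Of each list, up to 4 genes per direction are named, and every JAK gene, other SOCS gene and STAT4 or STAT6 receptor chain. Marker genes, Irf9, Flt3, Csf2rb, Furin and the targets below background were named outside this rule, after their values were seen. Python 3.11.15, pandas 2.3.3 and numpy 2.4.6 were used.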

Additional observations from a re-analysis of the deposited data

How the results depend on the processing

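As reported, 2 members were called in each of the 3 comparisons. The calls were recomputed with arrays scaled on spike-ins or on the median gene, with the background at the 99th (411.7) or 90th percentile (90.9), at 3-fold and 1.5-fold, with the mean of a gene's probe sets, and without probe sets of the types _s_at and _x_at. With spike-in scaling, 6 members were called lower in CD8+ than in CD11b+ cDC (Stat2, Stat3, Stat4, Stat5b, Stat6 and Socs3), as the scaling lowers all genes of that array. For pDC against CD11b+ cDC it gave 1 higher and 2 lower, against 1 and 1 as deposited. At 3-fold, 1 member was called for pDC against CD11b+ cDC and 1 for CD8+ against CD11b+ cDC, both times Stat4. At 1.5-fold, 4 were called in each of these. Without _s_at and _x_at probe sets, 1 was called in each of the 3 comparisons, since Socs3 was then read from its gene-specific probe set (log2 0.37 for pDC minus either cDC). With the mean of probe sets the count for CD8+ against CD11b+ cDC stayed at 2, but with Stat2 in place of Socs3. Of 140 recomputed differences of single members, 128 moved by less than the spread between probe sets, 12 moved by more and 0 of the called ones changed sign. Many of the 140 had little room to move. Either other background left every member difference that was still measured unchanged, and leaving out _s_at and _x_at probe sets changed only Socs3. The 2 rescalings shift nearly all differences of a comparison alike. The 128 are therefore no measure of how stable the differences are. Differences that could no longer be measured are not among the 140. These were those of Cish with the background at the 99th percentile. The called Socs3 difference for CD8+ against CD11b+ cDC was also lost without _s_at and _x_at probe sets. With the background at the 99th percentile, the STAT4 receptor chains lost their calls in each of the 3 comparisons, with 0 measured. No paired analysis was possible because each cell type has 1 array. Leaving out a replicate was not possible for the same reason. Over all genes, pDC held 51.9% of calls against CD8+ cDC and 51.2% against CD11b+ cDC as deposited, and 77.6% and 34.8% with spike-in scaling. CD8+ cDC held 49.0% against CD11b+ cDC, and 7.9% with spike-in scaling.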
